A study of Mus musculus with 2 samples.

Results

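The genes described here are the classical and atypical cadherins and the non-clustered protocadherins. They were chosen by name alone, as every gene whose symbol is Cdh or Pcdh followed directly by a number, which leaves out the clustered Pcdha, Pcdhb and Pcdhg genes. They number 35 of the 32285 genes in the count tables. By subfamily they are 5 type I cadherins, 13 type II cadherins, 4 delta-1 protocadherins, 5 delta-2 protocadherins and 8 others. The data are 2 single-cell RNA libraries of freshly dissociated brain from mice at postnatal day 10, of the strain written as C57BL/J. Both belong to 1 group, with no treatment, transgene or control. The series names 6 mice and does not tie them to the libraries, so the p-values below cannot be read as a spread between mice. They rest on the spread left between these 2 libraries once a shift shared by all tested classes is removed. That spread is estimated over the tested classes together and may be technical. A class whose libraries lie far apart is therefore not judged by its own spread alone. The question put to the data is which combinations of these adhesion genes each cell class carries.

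Cadherins are calcium-dependent adhesion proteins of the cell surface. Classical cadherins of type I and type II bind a like molecule on the neighbouring cell and are tied to the actin cytoskeleton through catenins. The delta protocadherins adhere more weakly, signal through other cytoplasmic partners and are best known in the brain for the sorting of neurons and axons. Because cells adhere according to which members they share, the family is usually described by its combinations.

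The libraries held 12978 and 19508 barcodes with medians of 3446 and 1470 unique molecular identifiers (UMIs), and 90 barcode sequences occurred in both. Throughout, pairs of values are for library 1 and then library 2. After filters on genes per cell, mitochondrial share and doublets, 11992 and 14068 cells remained. Clustering left out every cadherin gene, so none of the 35 helped to form a class, although the classes come from the other genes of the same cells. Of 30 clusters, 24 were named from marker lists, and 11 classes with at least 50 cells in each library entered the tests. The marker list of each of these 11 classes had a higher summed level in its own class than in any other of the 11, in both libraries. That margin was small for the neuroblast-like class, with 7652 and 8022 counts per 1000000 UMIs (CPM), against at most 6249 and 6337 CPM elsewhere. The pericyte-like class also held smooth muscle markers at 4646 and 4395 CPM. The libraries of the inhibitory neuron-like class stood apart, with the neuropeptide genes Sst at 8.29 and 5547 CPM and Npy at 454 and 15524 CPM, so its values are read library by library. Library 1 gave only 95 microglia-like cells, against 1949 in library 2.

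Levels are given as CPM, the UMIs of a gene per 1000000 UMIs of all genes, both summed over the cells of a class in a library. The method counts 1 tag at the 3' end of each transcript, so CPM are not scaled by length, and capture can differ between genes. A class was tested against the other 10 with edgeR's quasi-likelihood test on the sums, with the library as a block. A gene was called where its Benjamini-Hochberg adjusted p over all 14721 genes tested was under 0.05, its change was at least 1 on the log2 scale, and its sign was the same in both libraries and in the difference of mean CPM. The test sets the log level of a class against the mean of the log levels of the other classes. Classes near 0 pull that mean down, so the log2 change exceeds the log2 of the ratio of CPM, and the ratio is given beside it.

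All 26 members that passed the filter on low counts varied among the 11 classes. So did 95.2% of all genes tested, so this count is near the background. The 9 members too low to test were Cdh1, Cdh3, Cdh9, Cdh15, Cdh16, Cdh17, Cdh18, Cdh19 and Cdh23. Members that reached the filter through a class in which they are high had to differ, so the counts of calls are set beside those of all genes. In the 286 tests of a member in a class, 75 were called higher and 41 lower, which is 26.2% and 14.3%, against 13.7% and 8.50% of all genes. With a ratio of mean CPM of at least 2 as a further condition, chosen after seeing the data, 48 were called higher and 41 lower, or 16.8% and 14.3%, against 8.99% and 8.23% of all genes. The share of calls that were higher was then 53.9%, against 64.7% without that condition. The spread over classes, measured as tau, which is 0 for an even level and 1 for a gene in a single class, had a median of 0.825 for the 26 members and 0.663 for all genes tested. Tau rises in genes with few UMIs, so this is a description. Genes that formed the clusters or marked the classes are among all genes, and without them the share called higher was 12.2% in the oligodendrocyte precursor-like and 14.6% in the astrocyte-like class, against 12.5% and 14.8% with them.

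**Figure D1:**
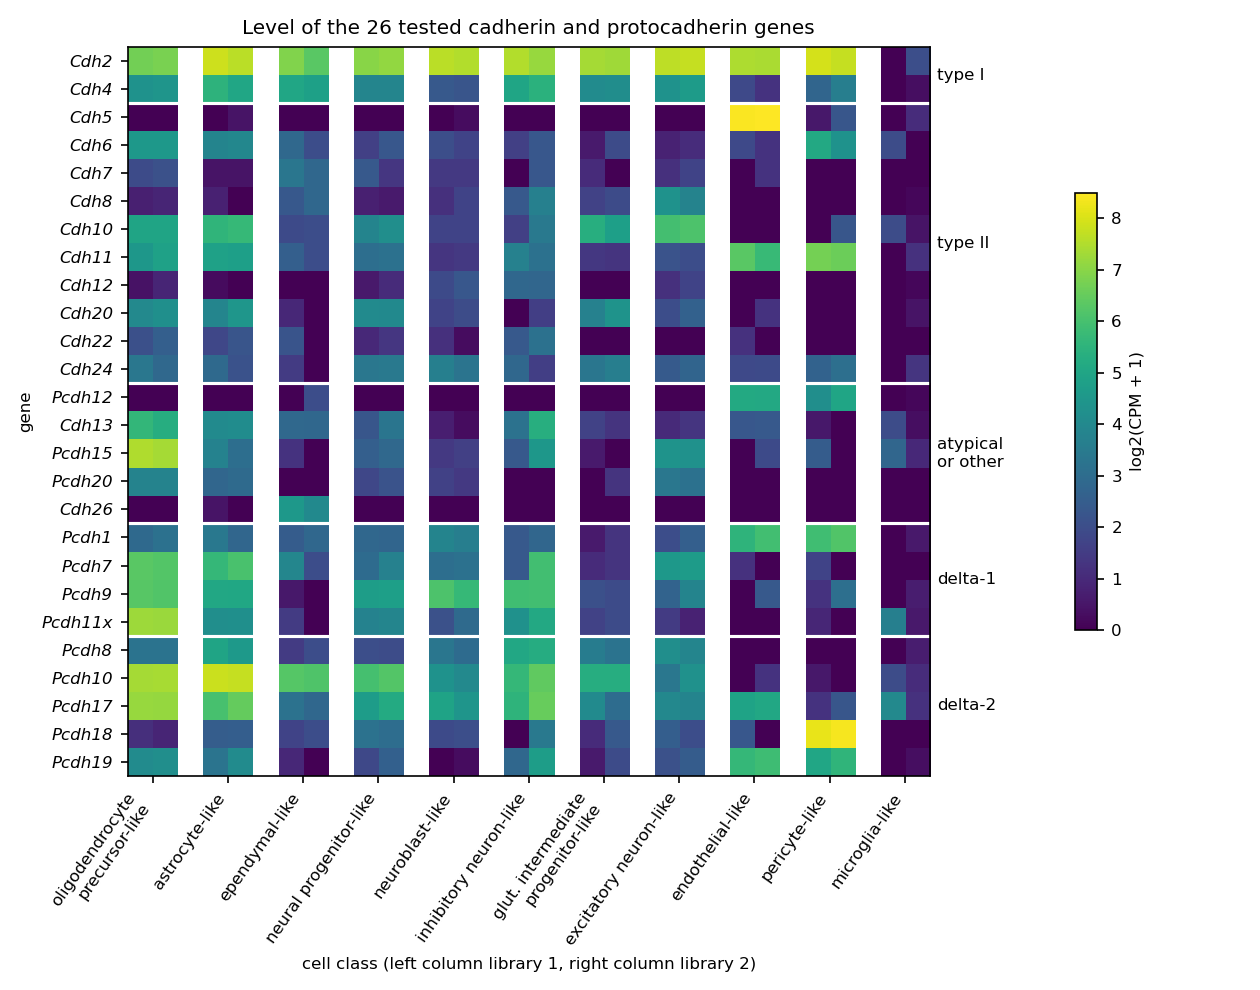
Level of the 26 tested genes in the 11 classes, as log2(CPM + 1), with genes grouped by subfamily down the page and, within each class, library 1 at the left and library 2 at the right. Cdh2 is filled in 10 classes, while Cdh5, Pcdh18 and Cdh26 are filled mainly in 1 class each.

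The calls were unevenly spread over the classes. The oligodendrocyte precursor-like class had 16 of 26 members called higher and the astrocyte-like class 13, while the microglia-like class had 13 called lower. Every class except the microglia-like one carried Cdh2 at 20 CPM or more in both libraries. Counting members at that level, the oligodendrocyte precursor-like class carried 11, the astrocyte-like class 9, the endothelial-like class 7, the inhibitory neuron-like class 6 and the pericyte-like class 5. The neural progenitor-like class carried 4, and the ependymal-like, excitatory neuron-like, glutamatergic intermediate progenitor-like and neuroblast-like classes carried 3 each. The microglia-like class carried none. The summed level of the 35 genes was 1113 and 1095 CPM in the oligodendrocyte precursor-like class, and 44.4 and 17.1 CPM in the microglia-like class.

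**Figure D2:**
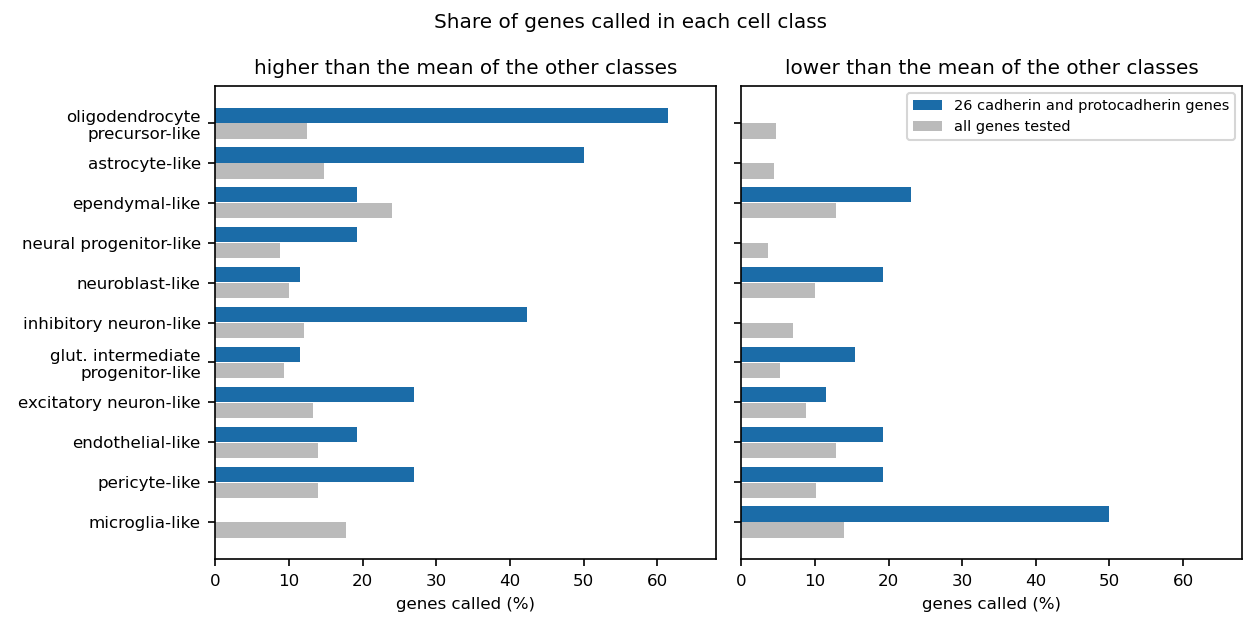
Percent of the 26 tested members (blue) and of all genes tested (grey) called higher, left, and lower, right, in each class against the mean of the other classes. The oligodendrocyte precursor-like class has the highest blue bar on the left, at 61.5%, and the microglia-like class the highest on the right, at 50%.

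The combination of levels was similar between libraries within a class. Over the 35 genes, the profile of log2(CPM + 1) of a class in 1 library was most like the same class in the other library in 20 of 22 cases. The likeness was Pearson's r across genes, which are not independent replicates, and it is given as a description. It was 0.995 between the libraries of the oligodendrocyte precursor-like class, 0.986 in the astrocyte-like class and 0.984 in the neuroblast-like class. It was 0.824 in the inhibitory neuron-like class. The cases that failed were both libraries of the microglia-like class, in which most members were at or near 0. That class had an r of 0.234 between libraries, and its library 1 profile was most like the oligodendrocyte precursor-like class, at 0.641.

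Members lie in groups along the chromosomes. Of the 35, 8 lie on chromosome 8, 5 on chromosome 14 and 5 on chromosome 15, by the GENCODE M21 annotation of the mm10 build. Neighbours could differ in class. On chromosome 8, Cdh11 (chr8:102632095-102785642) and Cdh5 (chr8:104101625-104144511) were highest in the pericyte-like and the endothelial-like class. On chromosome 3, Pcdh10 (chr3:45378398-45435623) and Pcdh18 (chr3:49743296-49757325) were highest in the astrocyte-like and the pericyte-like class, and Pcdh10 was close to 0 where Pcdh18 was high.

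The promoters of 6 members from the type II, delta-1, delta-2 and other groups are printed, so that the sequence can be read beside the levels. They come from RefSeq on GRCm38.p6, hold 250 bases before and 50 after the annotated start, and are written 5' to 3' on the strand of the gene. Capitals mark matches, on either strand, to a fixed set of short motifs. The SOX core is spelled ACAAAG in this search. The E-box searched for is CAGCTG, which reads the same on both strands. The RFX half-site is spelled GTTGCC. The TATA box is taken as the letters TATAAA alone. The SP1 box is spelled GGGCGG.
Cdh10 chr15:18820079-18820378 (+), excitatory neuron-like: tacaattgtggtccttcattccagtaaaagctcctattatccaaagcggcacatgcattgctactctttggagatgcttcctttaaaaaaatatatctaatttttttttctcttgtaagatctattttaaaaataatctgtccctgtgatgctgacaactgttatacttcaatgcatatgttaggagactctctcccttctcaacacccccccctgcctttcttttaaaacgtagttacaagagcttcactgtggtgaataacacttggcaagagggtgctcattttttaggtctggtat
Cdh26 chr2:178430265-178430564 (+), ependymal-like: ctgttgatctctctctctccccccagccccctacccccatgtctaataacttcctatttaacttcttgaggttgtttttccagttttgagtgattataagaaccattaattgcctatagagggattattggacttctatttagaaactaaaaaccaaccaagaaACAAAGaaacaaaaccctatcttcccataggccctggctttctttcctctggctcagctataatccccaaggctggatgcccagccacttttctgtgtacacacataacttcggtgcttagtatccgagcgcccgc
Pcdh15 chr10:73821617-73821916 (+), oligodendrocyte precursor-like: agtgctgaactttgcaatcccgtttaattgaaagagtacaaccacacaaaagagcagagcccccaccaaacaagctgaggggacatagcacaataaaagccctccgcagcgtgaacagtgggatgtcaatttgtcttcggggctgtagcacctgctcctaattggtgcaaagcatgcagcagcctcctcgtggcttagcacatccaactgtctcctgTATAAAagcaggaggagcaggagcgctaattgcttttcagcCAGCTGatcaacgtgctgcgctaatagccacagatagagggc
Pcdh7 chr5:57717831-57718130 (+), oligodendrocyte precursor-like: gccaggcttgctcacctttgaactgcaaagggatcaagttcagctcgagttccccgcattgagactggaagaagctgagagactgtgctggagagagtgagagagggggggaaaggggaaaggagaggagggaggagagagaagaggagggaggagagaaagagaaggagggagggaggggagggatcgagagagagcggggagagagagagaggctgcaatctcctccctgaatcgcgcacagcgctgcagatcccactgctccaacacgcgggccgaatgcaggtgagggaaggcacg
Pcdh10 chr3:45378148-45378447 (+), astrocyte-like: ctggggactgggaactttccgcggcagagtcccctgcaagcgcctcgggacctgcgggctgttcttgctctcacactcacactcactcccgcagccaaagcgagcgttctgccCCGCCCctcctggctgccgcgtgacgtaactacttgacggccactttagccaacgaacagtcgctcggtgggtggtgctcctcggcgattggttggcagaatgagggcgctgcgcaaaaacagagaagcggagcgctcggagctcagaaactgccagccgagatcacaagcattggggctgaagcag
Pcdh18 chr3:49757267-49757566 (-), pericyte-like: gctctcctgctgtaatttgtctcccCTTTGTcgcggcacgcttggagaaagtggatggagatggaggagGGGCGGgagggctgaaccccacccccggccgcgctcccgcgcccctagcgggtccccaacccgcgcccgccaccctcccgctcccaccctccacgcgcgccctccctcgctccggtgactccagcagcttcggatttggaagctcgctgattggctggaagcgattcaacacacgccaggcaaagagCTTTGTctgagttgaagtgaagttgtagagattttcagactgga
The printed windows of Cdh10 and Pcdh15 lie wholly inside the genes as GENCODE draws them (chr15:18818947-19014236 and chr10:73099342-74649737). The GC content was 37.7% for Cdh10, 44.0% for Cdh26, 50.7% for Pcdh15, 59.3% for Pcdh7, 62.3% for Pcdh10 and 63.0% for Pcdh18. The RefSeq table held 25 promoters of 22 members. Of those 25, 5 held the SOX core, 3 the E-box, 0 the RFX half-site, 2 the TATA box and 9 the SP1 box. Of all 32851 promoters in the table, 18.7%, 16.3%, 12.5%, 13.6% and 35.7% held these motifs, in the same order. A match is a string of letters and does not show that a factor binds. Cdh1, Cdh2, Cdh3, Cdh4, Cdh5, Cdh11, Cdh13, Cdh16, Cdh17, Cdh19, Pcdh1, Pcdh11x and Pcdh12 are named only.

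Type I cadherins include the N-cadherin gene Cdh2, the main classical cadherin of neural tissue. Cdh2 had the most UMIs of any member, 12170 over all kept cells, and the most even spread, with a tau of 0.375. It was 246 and 214 CPM in the pericyte-like class, 227 and 195 CPM in the astrocyte-like class and 198 and 216 CPM in the excitatory neuron-like class, and these ranges overlap. The lowest levels outside the microglia-like class were 119 and 79.7 CPM in ependymal-like cells and 101 and 108 CPM in oligodendrocyte precursor-like cells. In microglia-like cells Cdh2 was 0 and 3.16 CPM. Cdh4, R-cadherin, was 43.6 and 31.4 CPM in astrocyte-like, 31.1 and 41.6 CPM in inhibitory neuron-like and 31.7 and 27.6 CPM in ependymal-like cells, and the ranges of all 3 overlap. Cdh4 was at most 5.87 and 11.5 CPM in the endothelial-like, pericyte-like, neuroblast-like and microglia-like classes. Cdh1, Cdh3 and Cdh15, the E-, P- and M-cadherin genes of epithelia and muscle, had 5, 6 and 26 UMIs over all kept cells.

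Among the 11 tested classes, type II cadherins ranged from a gene of 1 class to genes of several. Cdh5, VE-cadherin of endothelial junctions, was 346 and 360 CPM in the endothelial-like class. Its next level among the tested classes was 0.451 and 3.83 CPM in the pericyte-like class, and it had no UMI in 6 of the 11 classes. Outside the tests, fibroblast-like cells also held Cdh5, as given under other observations. Cdh11 and Cdh6 were vascular as well as glial. Cdh11 was 104 and 95.6 CPM in pericyte-like, 78.1 and 52.2 CPM in endothelial-like, 28.1 and 27.0 CPM in astrocyte-like and 21.5 and 28.3 CPM in oligodendrocyte precursor-like cells. Cdh6 was 33.9 and 19.1 CPM in pericyte-like and 22.0 and 22.1 CPM in oligodendrocyte precursor-like cells, which overlap, and 2.65 and 1.37 CPM in endothelial-like cells. Cdh10, a synaptic type II cadherin, was shared by excitatory neurons and glia. It was 61.2 and 69.3 CPM in excitatory neuron-like, 45.8 and 50.9 CPM in astrocyte-like, 38.9 and 26.8 CPM in glutamatergic intermediate progenitor-like and 30.4 and 30.4 CPM in oligodendrocyte precursor-like cells. It had no UMI in endothelial-like cells.

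The other type II members stayed under 20 CPM or close to it. Cdh20 was highest in astrocyte-like cells, at 13.7 and 21 CPM, and overlapped there with the oligodendrocyte precursor-like, neural progenitor-like and glutamatergic intermediate progenitor-like classes. Cdh8 was 19.1 and 12.8 CPM in excitatory neuron-like and 4.14 and 11.9 CPM in inhibitory neuron-like cells. Cdh7 was highest in ependymal-like cells, at 9.06 and 6.13 CPM. Cdh12 and Cdh22 were highest in inhibitory neuron-like cells, at 6.21 and 5.94 CPM and at 4.14 and 7.92 CPM. Cdh24 was the flattest of these, with a tau of 0.487, and reached 9.19 and 11.3 CPM in glutamatergic intermediate progenitor-like cells. Cdh9 gave 0 and 15.8 CPM in inhibitory neuron-like cells, so its level there rests on library 2 alone. Cdh18 and Cdh19 had at most 2.37 CPM in any tested class and library.

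Among the members outside these subfamilies, Pcdh15 and Cdh26 had the sharpest patterns. Pcdh15, whose product forms the tip link of inner ear hair cells together with that of Cdh23, was 178 and 161 CPM in the oligodendrocyte precursor-like class. The next classes were excitatory neuron-like at 19.6 and 18.8 CPM and inhibitory neuron-like at 4.14 and 21.8 CPM, so the highest class did not overlap with any other and was 8.80-fold over the next by mean. Its partner Cdh23 had 39 UMIs in all kept cells and was not tested. Cdh26 gave 22.2 and 15.3 CPM in ependymal-like cells, from 54 UMIs, and 2 UMIs in the other 10 classes together. Cdh13, a cadherin held in the membrane by a lipid anchor, was 48.3 and 38.3 CPM in oligodendrocyte precursor-like and 15.9 and 16.5 CPM in astrocyte-like cells. In inhibitory neuron-like cells Cdh13 was 8.29 and 39.6 CPM, and library 2 there overlaps with the oligodendrocyte precursor-like class. Pcdh12, a protocadherin of endothelium, was 34.4 and 34.4 CPM in endothelial-like and 17.2 and 30.6 CPM in pericyte-like cells, with no UMI in 7 classes. Pcdh20 was 13.1 and 12.9 CPM in oligodendrocyte precursor-like, 9.32 and 7.91 CPM in excitatory neuron-like and 5.95 and 6.74 CPM in astrocyte-like cells. Cdh16 and Cdh17 had 2 and 7 UMIs in all.

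All 4 delta-1 protocadherins were tested, and among the 11 tested classes 3 were highest in oligodendrocyte precursor-like cells. In unnamed clusters outside the tests Pcdh7 reached 155 and 116 CPM and Pcdh9 reached 115 and 119 CPM. Pcdh11x, on the X chromosome (chrX:120290259-120910619), was 150 and 148 CPM in oligodendrocyte precursor-like cells. It was 18.6 and 33.6 CPM in inhibitory neuron-like and 17.3 and 17.6 CPM in astrocyte-like cells, so that its highest class lay 5.70-fold over the next. Pcdh9 was 76.8 and 71.2 CPM in oligodendrocyte precursor-like, 69.4 and 50.7 CPM in neuroblast-like and 58.0 and 59.4 CPM in inhibitory neuron-like cells. The first 2 do not overlap, but by a small margin. Pcdh7 was 78.7 and 74.5 CPM in oligodendrocyte precursor-like and 49.6 and 65.5 CPM in astrocyte-like cells. It was 4.14 and 59.4 CPM in inhibitory neuron-like cells, with the libraries far apart, and had no UMI in microglia-like cells. Pcdh1 was the vascular member of this subfamily, at 58.7 and 72.7 CPM in pericyte-like and 45.0 and 59.1 CPM in endothelial-like cells, which overlap. Elsewhere it was at most 13.4 and 11.4 CPM, in neuroblast-like cells.

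The 5 delta-2 protocadherins each had their highest mean level in a different one of the 11 tested classes. Pcdh10, also called OL-protocadherin, was 226 and 214 CPM in astrocyte-like, 162 and 167 CPM in oligodendrocyte precursor-like, 74.7 and 70.5 CPM in ependymal-like and 63.2 and 73.3 CPM in neural progenitor-like cells. It was 0 and 1.37 CPM in endothelial-like and 0.451 and 0 CPM in pericyte-like cells. Pcdh17 was 146 and 142 CPM in oligodendrocyte precursor-like, 64.0 and 88.3 CPM in astrocyte-like and 45.6 and 91.0 CPM in inhibitory neuron-like cells. Pcdh17 also reached 29.1 and 33.0 CPM in endothelial-like cells, against 1.35 and 3.83 CPM in pericyte-like cells. Pcdh18 was 294 and 333 CPM in pericyte-like cells and at most 8.11 CPM in library 1 and 9.90 CPM in library 2 in any other tested class. Pcdh8, induced by neuronal activity and also called arcadlin, was 33.1 and 37.6 CPM in inhibitory neuron-like and 30.3 and 22.5 CPM in astrocyte-like cells. Pcdh19, the gene on the X chromosome mutated in a form of human epilepsy, was 49.0 and 56.4 CPM in endothelial-like and 31.6 and 45.9 CPM in pericyte-like cells. In neuron-like classes it was 6.21 and 25.7 CPM in inhibitory and 3.27 and 4.52 CPM in excitatory cells.

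**Figure D3:**
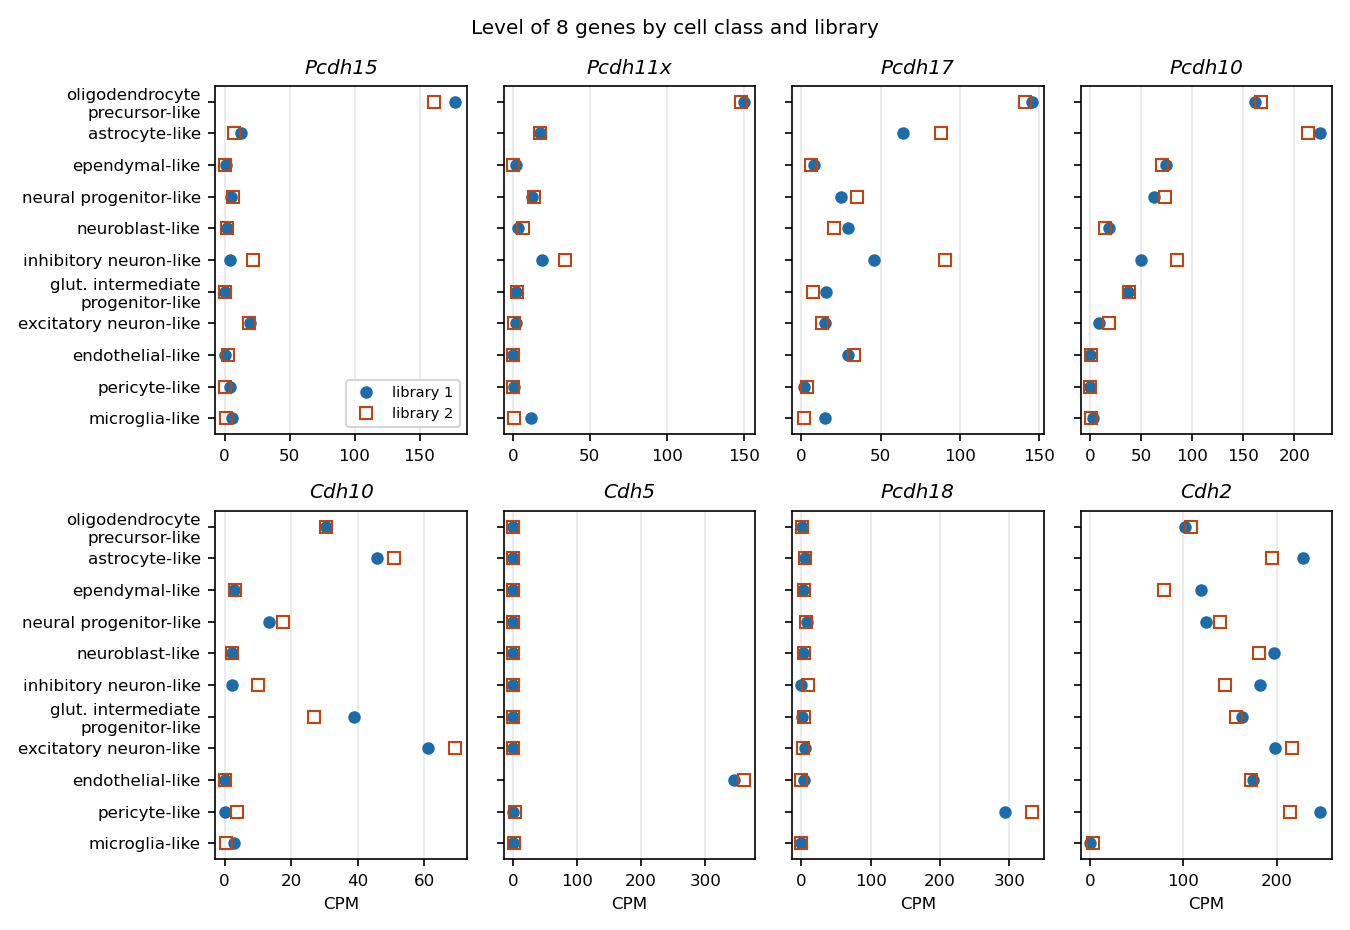
CPM of 8 genes (Pcdh15, Pcdh11x, Pcdh17, Pcdh10, Cdh10, Cdh5, Pcdh18 and Cdh2), with the 11 classes down the page and the level along each axis. A filled circle is library 1 and an open square library 2. Pcdh15 and Pcdh11x stand out in the oligodendrocyte precursor-like class, Cdh5 in the endothelial-like class and Pcdh18 in the pericyte-like class, while Cdh2 is spread over 10 classes.

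Oligodendrocyte precursor-like cells had the broadest combination. Of the 26 members, 16 were called higher and 0 lower, against 12.5% and 4.7% of all genes. With the ratio condition 11 were called higher, against 6.93% of all genes. For the 0 lower by edgeR, 18 members had an unadjusted p under 0.05 in either direction, and DESeq2 called 1 lower. The leading members were Pcdh11x, Pcdh15, Pcdh20, Pcdh7, Cdh13 and Pcdh10, all protocadherins but 1. Pcdh11x was 5.87 ± 0.19 (SE) higher on the log2 scale, at 20.4 times the mean CPM of the other classes (adjusted p = 7.86e-25). Pcdh15 was 5.64 ± 0.17 higher, at 29.3 times (adjusted p = 1.26e-26). Pcdh20 was 5.23 ± 0.45 higher, at 6.33 times (adjusted p = 1.24e-11). These calls, and those of members named below, remained in every alternative fit that held the class and tested the gene, unless a loss is stated. A larger threshold and the ratio condition are set apart. Members tested numbered 25 with doublets kept and 22 under stricter cell filters. Pcdh7 was 4.08 ± 0.24 higher, at 5.42 times (adjusted p = 2.97e-17). Cdh13 was 4.02 ± 0.23 higher, at 6.98 times (adjusted p = 1.61e-17). Pcdh10 was 3.47 ± 0.15 higher, at 3.29 times (adjusted p = 1.65e-21). The median change of the 26 members was 2.10 on the log2 scale, against 0.06 over all genes.

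Of the 11 members at 20 CPM or more in oligodendrocyte precursor-like cells, astrocyte-like cells also carried Cdh2, Cdh10, Cdh11, Pcdh7, Pcdh9, Pcdh10 and Pcdh17 at that level. The 9 oligodendrocyte precursor markers summed to 1758 and 1685 CPM in astrocyte-like cells, against 5802 and 5400 CPM in oligodendrocyte precursor-like cells, and their part in the shared levels was not tested. Here 13 members were called higher and 0 lower, against 14.8% and 4.5% of all genes, and 10 were called higher with the ratio condition, against 8.89%. For the 0 lower by edgeR, 17 members had an unadjusted p under 0.05 in either direction, and DESeq2 called 0 lower. Pcdh10 led by level, at 25.7% of the summed CPM of the 35 genes. It was 3.93 ± 0.14 higher on the log2 scale, at 226 and 214 CPM against a mean of 41.9 and 47.1 CPM in the other classes (adjusted p = 2.90e-24). Pcdh20 was 4.06 ± 0.56 higher, at 2.34 times the other classes' mean CPM (adjusted p = 2.61e-07), from a low level. Cdh10 was 3.63 ± 0.23 higher, at 3.05 times (adjusted p = 1.28e-16). The activity-induced Pcdh8 and the delta-1 member Pcdh7 were among the called genes as well. Pcdh7 was 3.58 ± 0.25 higher, at 3.59 times (adjusted p = 6.61e-15). Pcdh8 was 3.52 ± 0.26 higher, at 3.19 times (adjusted p = 2.53e-14). The UMIs of Pcdh8 in this class came mainly from the cluster led by Ttr, described below. Cdh20 was 3.09 ± 0.30 higher, at 3.03 times (adjusted p = 2.40e-11). The median change of the members was 1.93, against 0.08 over all genes.

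Endothelial-like cells combined Cdh5 with Pcdh12, Pcdh19, Pcdh1 and Cdh11, and had few or no UMIs of Cdh10, Pcdh11x and Pcdh10. The counts were 5 higher and 5 lower, or 19.2% each way, against 14% and 12.8% of all genes, and all 5 higher calls met the ratio condition, against 10.2%. Cdh5 was 11.83 ± 0.24 higher on the log2 scale, at 346 and 360 CPM against 0.0451 and 0.550 CPM (adjusted p = 1.02e-28). Pcdh12 was 8.36 ± 0.57 higher, at 13.5 times the other classes' mean (adjusted p = 6.67e-14), and was no longer called with DESeq2. Pcdh19 was 4.21 ± 0.30 higher, at 5.61 times (adjusted p = 3.93e-15). The members at the low end were glial or neuronal ones. Cdh10 and Pcdh11x had no UMI in this class. Against a floor of 3 UMIs over both libraries, Cdh10 was at least 10.2-fold lower (adjusted p = 0.000918) and Pcdh11x at least 11-fold lower (adjusted p = 0.00859). Pcdh10 had 1 UMI, a ratio to the other classes of 0.0102 with an exact 95% Poisson interval of 0.000257 to 0.0567 (adjusted p = 5.49e-06).

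Pericyte-like cells carried Pcdh18 as their main protocadherin, with Cdh2, Cdh11 and Pcdh1. In all 7 members were called higher and 5 lower, against 14% and 10.1% of all genes, and 6 were called higher with the ratio condition, against 10.3%. Pcdh18 was 7.27 ± 0.19 higher on the log2 scale, at 96.3 times the mean CPM of the other classes (adjusted p = 8.07e-29). Pcdh12 was 7.46 ± 0.62 higher, at 6.64 times (adjusted p = 6.55e-12), and was no longer called with DESeq2. Cdh11 was 3.89 ± 0.19 higher, at 6.82 times (adjusted p = 1.47e-20). The class held endothelial markers at 539 and 509 CPM, against 7668 and 7300 CPM in the endothelial-like class, and their part in the shared Pcdh12 was not tested. Among the lower calls, Pcdh10 had 1 UMI, a ratio of 0.00609 (0.000154 to 0.0339, adjusted p = 3.55e-07). Pcdh17 was 3.77 ± 0.58 lower on the log2 scale, at 1.35 and 3.83 CPM against 39.2 and 43.7 CPM (adjusted p = 9.47e-07). Cdh20 had no UMI and was at least 6.15-fold lower (adjusted p = 0.00392), a call lost under stricter cell filters and with doublets kept.

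Ependymal-like cells carried Cdh2, Cdh4 and Pcdh10 at 20 CPM or more in both libraries. They also held Cdh26, which was below that level in library 2, and had few UMIs of Pcdh9, Pcdh15 and Pcdh19. There were 5 higher and 6 lower calls, against 24% and 12.8% of all genes, so the higher calls, at 19.2%, were below the background share. With the ratio condition 2 were called higher, against 21.1%. Cdh4 and Pcdh10 were called higher in every alternative fit that held the class and tested the gene, but did not meet the ratio condition. Cdh26 was called higher (adjusted p = 8.66e-12), with a ratio of pooled CPM of 710.1 and an exact Poisson interval of 196.6 to 5864 that rests on the 2 UMIs elsewhere. It was no longer called with DESeq2. Cdh7 was 3.31 ± 0.63 higher on the log2 scale, at 5.84 times the other classes' mean (adjusted p = 2.57e-05). Cdh8 was 2.32 ± 0.75 higher, at 1.70 times (adjusted p = 0.00791), which was lost with doublets kept. Pcdh9, at 0.453 and 0 CPM against 27.3 and 26.9 CPM, had a ratio of 0.0146 (0.000371 to 0.0816, adjusted p = 2.21e-06). Pcdh19 had 2 UMIs and a ratio of 0.0571 (0.00692 to 0.206, adjusted p = 0.00868). Pcdh15 had 3 UMIs and a ratio of 0.0514 (0.0106 to 0.150, adjusted p = 0.00629), and both of these calls were lost with doublets kept. Library 2 gave only 52 cells of this class.

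Excitatory neuron-like cells carried Cdh2, Cdh10 and Pcdh7 at 20 CPM or more in both libraries, and the type II cadherin Cdh8 below that level. In this class 7 members were called higher and 3 lower, against 13.2% and 8.8% of all genes, and 3 were called higher with the ratio condition, against 7.51%. Cdh8 was 4.66 ± 0.39 higher on the log2 scale, at 8.35 times the other classes' mean CPM (adjusted p = 1.44e-12). Pcdh20 was 4.66 ± 0.53 higher, at 3.46 times (adjusted p = 4.33e-09). Cdh10 was 4.18 ± 0.21 higher, at 4.60 times (adjusted p = 4.35e-19). The next calls rest on smaller ratios of CPM. Cdh12 was 2.79 ± 0.81 higher, at 1.61 times (adjusted p = 0.00474). Pcdh8 was 2.75 ± 0.31 higher, at 1.65 times (adjusted p = 2.78e-09). Pcdh7 was 2.25 ± 0.32 higher, at 1.20 times (adjusted p = 2.80e-07). The 3 lower calls were Cdh6, Cdh13 and Cdh11, of which Cdh13 was lost under stricter cell filters and at a finer clustering. The higher call of Cdh4 changed sign under stricter cell filters, with a change of -0.03.

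Inhibitory neuron-like cells carried a different set of protocadherins, with the library differences in Sst and Npy set out above. There were 11 higher and 0 lower calls, against 12% and 7% of all genes, and 7 higher with the ratio condition, against 9.19%. For the 0 lower by edgeR, 14 members had an unadjusted p under 0.05 in either direction, and DESeq2 called 0 lower. Cdh12 was 4.66 ± 1.05 higher on the log2 scale, at 9.21 times the other classes' mean CPM (adjusted p = 0.000702). Pcdh8 was 3.98 ± 0.41 higher, at 4.80 times (adjusted p = 6.23e-10). Cdh22 was 3.89 ± 1.03 higher, at 5.14 times (adjusted p = 0.00366). Cdh12 rests on 3 and 3 UMIs in this class, and Cdh22 on 2 and 4. The values of the next 2 differ between the libraries. Cdh8 was 3.48 ± 0.85 higher, at 4.14 and 11.9 CPM against 2.87 and 2.55 CPM (adjusted p = 0.00167). Pcdh11x was 3.10 ± 0.51 higher, at 18.6 and 33.6 CPM against 20.2 and 19.0 CPM (adjusted p = 8.03e-06), so that in library 1 its CPM lay below the mean of the other classes. Pcdh9 was even between the libraries and 3.06 ± 0.32 higher, at 2.76 times (adjusted p = 5.55e-10).

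Neuroblasts are young migrating neurons, and the neuroblast-like class had few calls. In this class 3 members were called higher and 5 lower, against 9.99% and 9.95% of all genes, and 2 were called higher with the ratio condition, against 4.22%. Pcdh9 was 3.29 ± 0.19 higher on the log2 scale, at 69.4 and 50.7 CPM against 20.4 and 21.8 CPM (adjusted p = 1.76e-17). Cdh12 was 3.91 ± 0.63 higher, at 3.57 times (adjusted p = 3.63e-06). Pcdh19 had 1 UMI in 2100 and 2228 cells, a ratio of 0.00750 (0.000190 to 0.0418, adjusted p = 1.66e-07). The remaining leading calls were lower. Cdh11 was 2.59 ± 0.33 lower (adjusted p = 2.04e-08), and Cdh4 was 1.31 ± 0.29 lower (adjusted p = 0.000253), which was lost under stricter cell filters. Cdh13 was 3.09 ± 0.72 lower (adjusted p = 0.000465), but was 0.48 higher under stricter cell filters. Pcdh15, the remaining lower call, changed sign to 0.15 with doublets kept, 0.82 at a finer clustering and 0.47 with an unnamed cluster led by Prokr2 added to the class.

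Neural progenitor-like cells had 5 higher and 0 lower calls, against 8.73% and 3.66% of all genes, and 1 higher call with the ratio condition, against 3.95%. For the 0 lower by edgeR, 16 members had an unadjusted p under 0.05 in either direction, and DESeq2 called 1 lower. Cdh20 was 3.15 ± 0.27 higher on the log2 scale, at 2.65 times the other classes' mean (adjusted p = 1.47e-12). The other calls stood on ratios of CPM under 2. Pcdh10 was 2.21 ± 0.17 higher, at 1.14 times (adjusted p = 5.97e-14). Cdh7 was 2.12 ± 0.50 higher, at 1.63 times (adjusted p = 0.000803). Pcdh9 was 1.94 ± 0.21 higher, at 1.07 times (adjusted p = 9.10e-10). Cdh24 was 1.15 ± 0.23 higher, at 1.81 times (adjusted p = 8.44e-05). Under stricter cell filters Pcdh10 and Cdh24 were lost, and without the microglia-like class Pcdh9 was lost.

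Glutamatergic intermediate progenitor-like cells had 3 higher and 4 lower calls, against 9.29% and 5.21% of all genes, and 1 was called higher with the ratio condition, against 5.64%. Cdh10 was 3.18 ± 0.31 higher on the log2 scale, at 38.9 and 26.8 CPM against 16.1 and 18.8 CPM (adjusted p = 9.22e-11). Cdh20 was 2.99 ± 0.41 higher, at 2.75 times (adjusted p = 2.26e-07). The lower calls included members of vascular cells and of glia. Pcdh15 had 1 UMI, a ratio of 0.0169 (0.000428 to 0.0942, adjusted p = 0.00165), and was lost with doublets kept. Pcdh1 had 2 UMIs, a ratio of 0.0489 (0.00592 to 0.177, adjusted p = 0.000155). Cdh11 was 2.73 ± 0.51 lower (adjusted p = 5.70e-05). Pcdh9 was 1.51 ± 0.56 lower (adjusted p = 0.0402), and was lost without the library block, with DESeq2's size factors and at a finer clustering.

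Microglia-like cells carried almost none of the family. Here 13 members were called lower and 0 higher, against 14% and 17.8% of all genes, and 10.9% of all genes were called higher with the ratio condition. For the 0 higher by edgeR, 15 members had an unadjusted p under 0.05 in either direction, and DESeq2 called 0 higher. Pcdh7 and Pcdh18 had no UMI in 95 and 1949 cells. Against the floor of 3 UMIs, Pcdh18 was at least 98.9-fold lower (adjusted p = 1.79e-06) and Pcdh7 at least 62.3-fold lower (adjusted p = 6.97e-06), the second lost at a finer clustering. Cdh2, at 0 and 3.16 CPM against 173 and 161 CPM, was 5.18 ± 0.27 lower on the log2 scale (adjusted p = 1.27e-19). The remaining leading calls rest on 1 or 2 UMIs. Cdh4 had 2, a ratio of 0.0122 (0.00148 to 0.0442, adjusted p = 8.78e-11). Cdh6 had 1, a ratio of 0.0135 (0.000342 to 0.0753, adjusted p = 4.98e-05), and was lost under stricter cell filters. Pcdh19 had 2, a ratio of 0.0168 (0.00204 to 0.0607, adjusted p = 2.31e-05). Library 1 gave Pcdh17 at 14.8 CPM and Pcdh11x at 11.8 CPM in this class, against 1.34 and 0.486 CPM in library 2. The library 1 levels rest on a few UMIs, out of 337563 of all genes in its 95 cells. At full depth, 1.05% of those 95 cells held UMIs of 3 or more members. The library 1 cells of this class also held oligodendrocyte precursor markers at 133 CPM, against 23.1 CPM in library 2. The part of these in the levels was not tested.

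Direct pairs of related classes were tested in the same fit. Astrocyte-like against oligodendrocyte precursor-like cells gave 3 higher and 6 lower members, against 14.5% and 10.5% of all genes. The members that differed most were Pcdh15 and Pcdh11x. Pcdh15 was 12.6 and 7.49 CPM in astrocyte-like cells, against 178 and 161 CPM in oligodendrocyte precursor-like cells, or 4.0 ± 0.25 lower on the log2 scale (adjusted p = 3.02e-16). Pcdh11x was 17.3 and 17.6 CPM in astrocyte-like cells, against 150 and 148 CPM, or 3.09 ± 0.25 lower (adjusted p = 3.44e-13). In the other direction, Pcdh8 was 30.3 and 22.5 CPM in astrocyte-like cells, against 8.48 and 8.32 CPM, or 1.67 ± 0.25 higher (adjusted p = 1.22e-06). Pcdh8 was only 10.7 and 8.03 CPM in the astrocyte-like cluster led by Aqp4. In the cluster led by Ttr it was 51.9 and 77.7 CPM, so the call rests largely on that cluster. Pcdh18, at 4.69 and 4.87 CPM against 1.19 and 0.832 CPM, was 2.08 ± 0.53 higher (adjusted p = 0.00151). Cdh7 had 3 UMIs in astrocyte-like cells, a ratio of 0.121 (0.025 to 0.354, adjusted p = 0.00528). Cdh13 was 1.45 ± 0.27 lower in astrocyte-like cells (adjusted p = 3.47e-05), a call lost with DESeq2. Pcdh9 and Pcdh20 were also lower, Pcdh20 not with DESeq2. Cdh2, higher by 1.02 ± 0.17 (adjusted p = 6.13e-06), was lost in 4 alternatives, in which it was 0.86 to 0.99 higher.

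Endothelial-like against pericyte-like cells gave 2 higher and 2 lower members, against 8.93% and 10.4% of all genes, so the count was not above the background. The size of these changes was large. Cdh5 was 346 and 360 CPM in endothelial-like cells and 2 UMIs in pericyte-like cells, a ratio of pooled CPM of 436.7 (120.9 to 3606, adjusted p = 2.56e-16). Pcdh18 had 3 UMIs in endothelial-like cells, against 294 and 333 CPM in pericyte-like cells, a ratio of 0.00678 (0.00140 to 0.0198, adjusted p = 8.21e-16). Pcdh17 was 29.1 and 33.0 CPM in endothelial-like cells, against 1.35 and 3.83 CPM, or 4.28 ± 0.67 higher (adjusted p = 3.05e-06). Cdh6 had 3 UMIs in endothelial-like cells, a ratio of 0.0626 (0.0129 to 0.183, adjusted p = 2.52e-05). Cdh2, Cdh11, Pcdh1, Pcdh12 and Pcdh19 were not called in this pair, which does not show that their levels were equal.

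Inhibitory against excitatory neuron-like cells gave 8 higher and 2 lower members, against 4.52% and 3.53% of all genes. The delta protocadherins Pcdh11x, Pcdh9, Pcdh10, Pcdh17, Pcdh19 and Pcdh8 were all higher in inhibitory neuron-like cells. Pcdh11x was 18.6 and 33.6 CPM in inhibitory neuron-like cells, against 1.76 and 0.754 CPM in excitatory neuron-like cells, or 4.15 ± 0.61 higher (adjusted p = 2.93e-06). Pcdh9 was 58.0 and 59.4 CPM, against 5.54 and 13.2 CPM, or 2.65 ± 0.35 higher (adjusted p = 3.78e-07). Cdh13 was 8.29 and 39.6 CPM, against 1.01 and 1.51 CPM, or 4.16 ± 0.65 higher (adjusted p = 9.21e-06). Type II cadherins differed in both directions. Cdh10 was 2.07 and 9.90 CPM in inhibitory neuron-like cells, against 61.2 and 69.3 CPM, or 3.50 ± 0.45 lower (adjusted p = 2.43e-07). Cdh22 was 4.14 and 7.92 CPM in inhibitory neuron-like cells, with no UMI in excitatory neuron-like cells, and was at least 13.3-fold higher (adjusted p = 0.00443). Pcdh20 had no UMI in inhibitory neuron-like cells and was at least 2.84-fold lower (adjusted p = 0.00967). The calls of Pcdh19 and Pcdh8 were lost at a finer clustering.

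Neuroblast-like against neural progenitor-like cells gave 4 higher and 10 lower members, against 6.98% and 14.1% of all genes. Lower in neuroblast-like cells were Pcdh19, Cdh13, Cdh10, Cdh20, Cdh11, Pcdh10, Cdh4, Pcdh15, Pcdh18 and Pcdh11x, and higher were Pcdh1, Pcdh9, Pcdh8 and Cdh12. Of these 14 calls, Pcdh19 and Cdh10 remained under every alternative fit that tested them. Cdh10 was 2.30 and 2.28 CPM in neuroblast-like cells, against 13.4 and 17.5 CPM in neural progenitor-like cells, or 2.68 ± 0.32 lower on the log2 scale (adjusted p = 1.30e-08). Pcdh19 had 1 UMI in neuroblast-like cells, a ratio of 0.0310 (0.000784 to 0.173, adjusted p = 4.89e-06). Pcdh10 was 19.0 and 15 CPM, against 63.2 and 73.3 CPM, or 1.97 ± 0.20 lower (adjusted p = 3.04e-10). Cdh20 was 2.57 ± 0.31 lower (adjusted p = 1.99e-08). Pcdh9 was 69.4 and 50.7 CPM in neuroblast-like cells, against 25.5 and 26.9 CPM, or 1.23 ± 0.21 higher (adjusted p = 9.27e-06). Cdh12 was 2.16 ± 0.59 higher (adjusted p = 0.00372). Cdh13, 3.67 ± 0.61 lower (adjusted p = 6.02e-06), was 0.67 higher under stricter cell filters. Pcdh11x, 1.35 ± 0.31 lower, was 0.32 higher under those filters, and Pcdh15, 1.48 ± 0.41 lower, was 1.79 higher with doublets kept, 2.33 higher at a finer clustering and 0.36 higher with the Prokr2-led cluster added. The other lost calls were lost under stricter cell filters, except Cdh11, with doublets kept, and Cdh12, at a finer clustering.

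**Figure D4:**
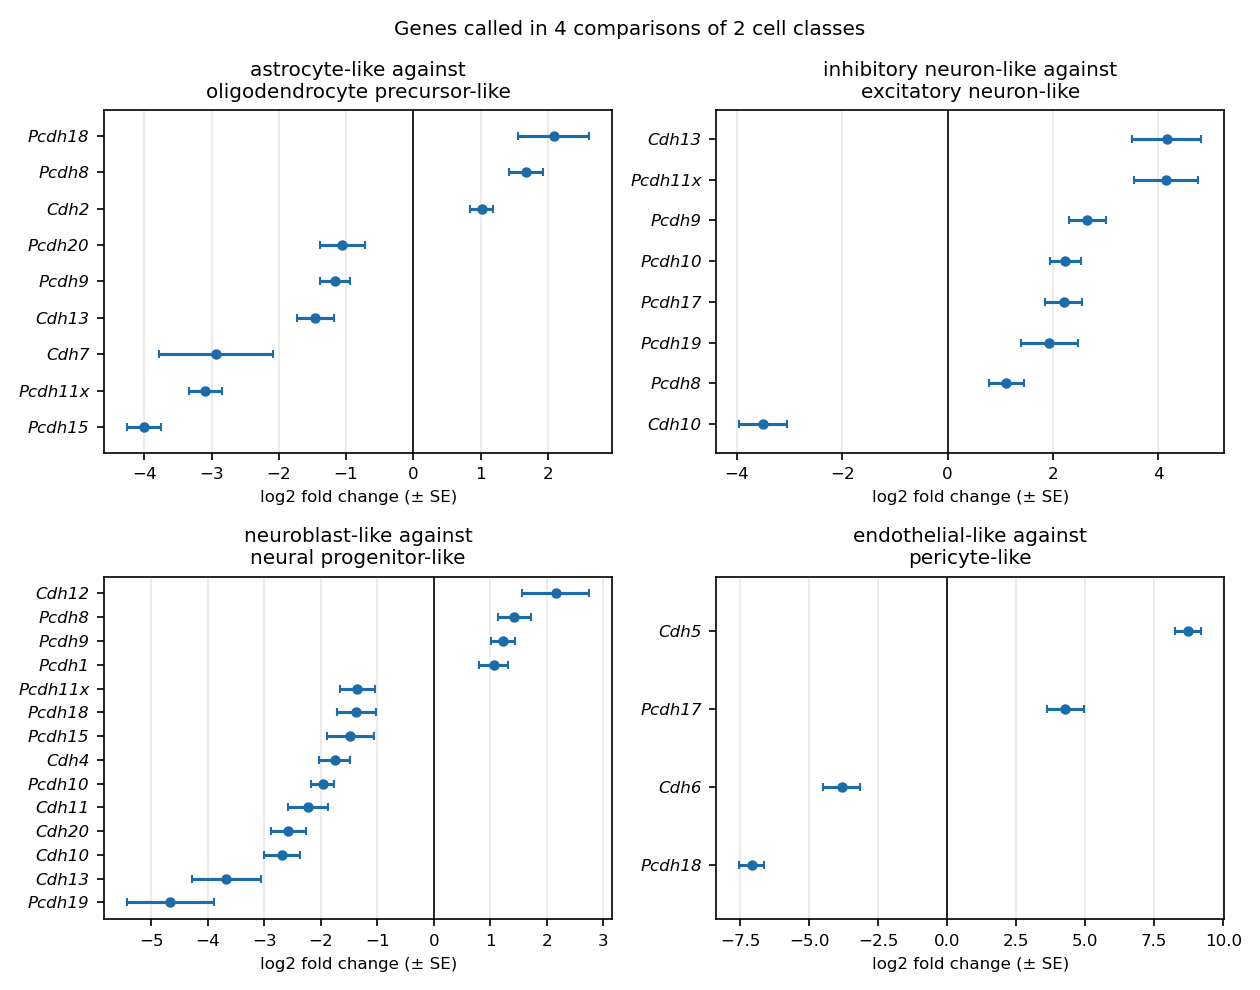
Log2 change with its SE for the members called in the 4 pairs, the first class named over the second, with genes that have no UMI in one class left out. Pcdh15 lies at -4.0 in astrocyte-like against oligodendrocyte precursor-like cells, Pcdh18 at -7.09 in endothelial-like against pericyte-like cells, and most points of inhibitory against excitatory neuron-like cells lie above 0.

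Members also differed between clusters of the same class, which is described without a test. Astrocyte-like cells fell into a cluster led by Aqp4, the water channel of astrocytes, and a cluster led by Ttr. The first held 558 and 402 cells and the second 703 and 158. The 8 choroid plexus epithelial markers, of which none was at 0, summed to 3866 and 229 CPM over the class, and their part in the members' levels was not tested. Pcdh7 was 79.9 and 78.4 CPM in the Aqp4-led and 16.3 and 16.3 CPM in the Ttr-led cluster, and Pcdh17 was 89.8 and 102 CPM in the first and 35.6 and 37.9 CPM in the second. The reverse order held for Pcdh8, at 10.7 and 8.03 CPM in the Aqp4-led and 51.9 and 77.7 CPM in the Ttr-led cluster, and for Pcdh15, at 3.44 and 1.42 CPM in the first and 22.7 and 30.7 CPM in the second. Pcdh10 was 226 and 210 CPM in the first and 225 and 228 CPM in the second. Excitatory neuron-like cells held a cluster led by Neurod1 and a cluster led by Unc5d. Cdh10 was 42.7 and 46.4 CPM in the first and 166 and 193 CPM in the second, and Cdh4 was 7.41 and 8.48 CPM in the first and 85.6 and 109 CPM in the second.

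Partner genes were read beside the members. All 17 listed catenins, adaptors, nectins and processing enzymes were tested, and in 187 tests 48 were called higher and 32 lower, or 25.7% and 17.1%, against 13.7% and 8.50% of all genes. With the ratio condition 21 were called higher and 32 lower, or 11.2% and 17.1%, against 8.99% and 8.23% of all genes. The higher share was then close to the background. Ctnna2, the neuronal alpha catenin, was called in 9 classes. It was 108 and 89.1 CPM in inhibitory neuron-like, 71.8 and 77.6 CPM in excitatory neuron-like, 1.81 and 7.65 CPM in pericyte-like and 0 and 4.12 CPM in endothelial-like cells. Vcl, vinculin, was called in 8 classes, at 330 and 295 CPM in pericyte-like and 60.9 and 56.4 CPM in endothelial-like cells. Afdn, Nectin1 and Nectin3 were each called in 7. Afdn, which links nectins to actin, was 120 and 122 CPM in endothelial-like and 7.22 and 3.83 CPM in pericyte-like cells. Among 16 tested of 20 other superfamily genes, 41 tests of 176 were called higher and 21 lower, or 23.3% and 11.9%. With the ratio condition 28 were called higher and 21 lower, or 15.9% and 11.9%. Celsr3, a receptor of planar polarity, was called in 10 classes, at 42.4 and 46.3 CPM in neuroblast-like and 1.62 and 1.87 CPM in astrocyte-like cells. Fat1 was called in 7 classes and Celsr1, Celsr2, Dchs1 and Fat3 in 6 each. Fat1 was 123 and 113 CPM in ependymal-like and 0.504 and 0.754 CPM in excitatory neuron-like cells. In ependymal-like cells, 10 of these 16 genes were called higher, against 24% of all genes tested, among them Cdhr3 at 128 and 104 CPM and Cdhr4 at 136 and 98.1 CPM, the same class that held Cdh26.

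Single cells were then read for members found together. Each cell was thinned to 2000 UMIs, and shallower cells were left out, which removed 966 and 1129 neuroblast-like cells. The mean number of members with a UMI was 1.95 and 1.90 in oligodendrocyte precursor-like, 1.48 and 1.44 in astrocyte-like, 1.32 and 1.48 in pericyte-like and 1.25 and 1.22 in endothelial-like cells. It was 0.585 and 0.536 in neuroblast-like and 0.0694 and 0.0307 in microglia-like cells, the class taken as background. Without thinning the oligodendrocyte precursor-like values were 3.48 and 3.39. UMIs of 3 or more members were found in 31.7% (95% exact binomial interval 29.2 to 34.3) and 28.5% (24.7 to 32.6) of oligodendrocyte precursor-like cells. The shares were 18.7% (16.5 to 21) and 16.9% (13.8 to 20.4) in astrocyte-like cells and 1.5% (0.876 to 2.39) and 0.910% (0.437 to 1.67) in neuroblast-like cells. These intervals cover counting error only.

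**Figure D5:**
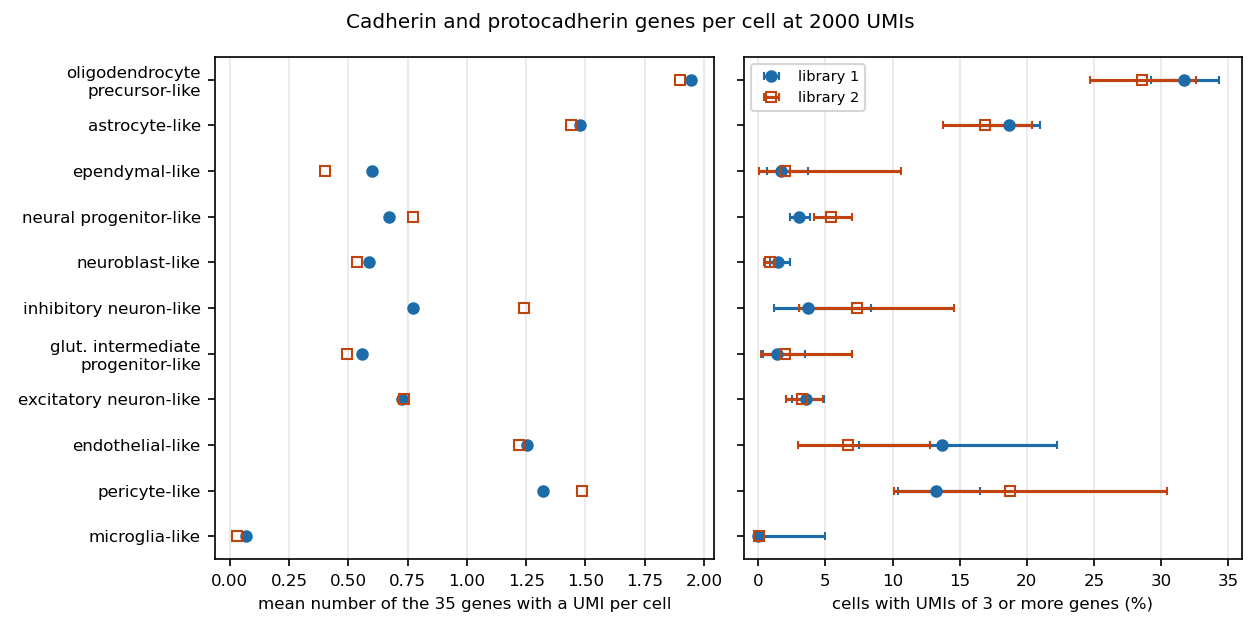
Members per cell after thinning to 2000 UMIs, with the classes down the page. The left panel gives the mean number of the 35 genes with a UMI, and the right panel the percent of cells with UMIs of 3 or more, with 95% exact binomial intervals. Circles are library 1 and squares library 2. Oligodendrocyte precursor-like cells lie highest, at 1.95 and 1.90, and microglia-like cells lowest, at 0.0694 and 0.0307.

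Shares of cells with a UMI followed the levels. Cdh5 was found in 49.5% and 42.9% of endothelial-like cells, against 0% and 0.368% of microglia-like cells at the same depth. Pcdh18 was found in 41.6% and 50% of pericyte-like cells and in no microglia-like cell of 72 and 1630, which allows up to 4.99% and 0.226% by the exact interval. Pcdh15 was found in 29.5% and 25.7% of oligodendrocyte precursor-like cells, against 2.78% and 0.184% of microglia-like cells. Cdh2 was part of the most frequent pair in 8 of the 10 classes with such a pair, all but oligodendrocyte precursor-like and ependymal-like cells. The ependymal-like pair, Cdh4 with Pcdh10, rested on 3 and 1 cells. Without thinning, the most frequent pair there was Pcdh10 with Cdh2, in 16.0% and 15.4% of cells. Pcdh18 with Cdh2 was found in 18.6% (15.3 to 22.3) and 17.2% (8.90 to 28.7) of pericyte-like cells, and Cdh5 with Cdh2 in 14.7% and 15.1% of endothelial-like cells. Pcdh10 with Cdh2 was found in 13.2% and 11.7% of astrocyte-like cells. In oligodendrocyte precursor-like cells the most frequent pair was Pcdh15 with Pcdh11x, in 9.55% (8.02 to 11.3) and 7.56% (5.46 to 10.2) of cells. Neuronal classes had smaller shares, as in Cdh10 with Cdh2 in 3.30% and 3.23% of excitatory neuron-like cells and Pcdh9 with Cdh2 in 3.53% and 2.82% of neuroblast-like cells. These shares follow the levels and the depth, and a cell without a UMI may still express the gene.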

How the data were processed

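Each of the 2 libraries came as a 10x matrix of UMI counts deposited by the authors, whole numbers per gene and barcode. Per the submitters' processing notes, Cell Ranger 6.1.2 and the mm10 build were used; no source used here names the annotation or the cell calling settings. Barcodes in the deposited matrices had at least 500 UMIs, with 51452085 and 45532691 UMIs per library. Cells were kept where they had 500 genes or more and a mitochondrial share of 10% or less (12618 and 14965). Scrublet marked 626 doublets in library 1 and 0 in library 2, where its threshold did not work and the 897 highest-scoring cells were removed instead. Cells were clustered with scanpy 1.11.5 (2000 variable genes, 30 components, Leiden resolution 1), without cadherin, partner, ribosomal and mitochondrial genes. Clusters were named from 22 marker lists; low-UMI or mixed clusters stayed unnamed. Counts were summed per library and class and fitted in R 4.3.3 with edgeR 4.0.16, library as a block, 11 classes and 22 sums, with 10 residual degrees of freedom; DESeq2 1.42.0 was an alternative. On simulated counts for 12902 genes, the astrocyte-like comparison recovered 100% of genes changed 4-fold higher and 90% of those 4-fold lower, with 3 false calls. The test of variation among classes called 39 unchanged genes. Apart from 200 genes changed in that class, each simulated gene had the same share in every class. Most real genes varied among classes, so these rates do not carry over to them. Genes named were the members with at least 20 CPM on average in at least 1 class, and the 6 called members of largest change in a class. The members and lists were chosen with earlier results of these data known. Ratios on 1 to 3 UMIs carry exact 95% Poisson intervals. Both libraries entered as samples of 1 group, and the number of mice in each is not given.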

Additional observations from a re-analysis of the deposited data

How the results depend on the processing

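Pairing by library was part of the fit, because each library gave every class; with no replicate block 75 class calls were higher and 40 lower, and 152 of 153 member results kept their call. Alternatives in clustering, cell filters, normalization, low-count filter and tool left 60 of 75 higher and 25 of 41 lower class calls in place. The same held for 10 of 17 and 10 of 20 pair calls. A fit that did not test the gene or hold the class was not counted as a loss. The counts of members that moved by over 1.5 times follow. At a log2 threshold of 2, partner calls were 19 higher and 16 lower, ependymal-like 3 higher, excitatory neuron-like 1 lower, neural progenitor-like 3 higher, neuroblast-like 3 lower, neuroblast-like against neural progenitor-like 1 higher and 5 lower, and astrocyte-like against oligodendrocyte precursor-like 1 higher and 3 lower. With stricter cell filters (1000 genes or more, 5% mitochondrial UMIs or less), superfamily calls were 27 higher, endothelial-like 9 lower, excitatory neuron-like 6 lower, neural progenitor-like 2 higher and 1 lower, neuroblast-like 3 lower, and neuroblast-like against neural progenitor-like 1 higher and 3 lower; the ependymal-like and inhibitory neuron-like classes had too few cells. With DESeq2, excitatory neuron-like had 5 lower, and neural progenitor-like and oligodendrocyte precursor-like 1 lower each. With doublets kept, inhibitory neuron-like had 1 lower, neural progenitor-like 4 lower and oligodendrocyte precursor-like 1 lower. At resolution 2, neural progenitor-like had 1 lower and neuroblast-like 3 lower. Adding cluster 5 (led by Prokr2) to the neuroblast-like class, chosen after seeing the data, gave 6 higher there and 7 higher against neural progenitor-like cells. Without the microglia-like class, also chosen after seeing the data, glutamatergic intermediate progenitor-like cells had 7 lower and oligodendrocyte precursor-like cells 1 lower. A ratio of mean CPM of at least 2, chosen likewise, gave 48 member calls higher in all and 21 partner gene calls higher. By class it gave ependymal-like 2, excitatory neuron-like 3, glutamatergic intermediate progenitor-like 1, inhibitory neuron-like 7 and neural progenitor-like 1 higher. The mean number of members per cell over classes was 0.919 at 2000 UMIs, 0.526 at 1000 and 1.66 without thinning. Changes of sign were Cdh4 in excitatory neuron-like (-0.028), Cdh13 in neuroblast-like cells (0.48) and against neural progenitor-like cells (0.67) and Pcdh11x in that pair (0.32) under the stricter filters, and Pcdh15 in neuroblast-like cells (0.15 with doublets kept, 0.82 at resolution 2, 0.47 with cluster 5) and in that pair (1.79, 2.33 and 0.36). The cause was not tested. Leaving out 1 library leaves 1 sample per class, so it gives values and no calls. Each call required the same sign in both libraries, so no sign could change here. The values are differences of log2 CPM within 1 library, which is another measure than the fitted change. Of 153 values, 98 lay further from the fitted change than the spread between replicates without library 1, and 92 without library 2. The change of measure enters these counts, so they do not isolate the effect of a library. Members under 20 CPM rest on few UMIs, and a library with 52 ependymal-like or 95 microglia-like cells limits what can be detected there.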

Other observations

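Some levels lay outside the 11 tested classes. Fibroblast-like cells (43 and 8) gave Cdh5 at 171 and 211 CPM, and they held endothelial markers at 6.56 and 0 CPM, against 7668 and 7300 CPM in endothelial-like cells. Cajal-Retzius cell-like cells (37 and 98) gave Cdh4 at 161 and 116 CPM, above each tested class, and Pcdh11x at 92.2 and 51.4 CPM. The unnamed cluster led by Prokr2 and Pbx3, with 1407 and 1021 cells, gave Pcdh9 at 115 and 119 CPM and Cdh8 at 16.6 and 13.3 CPM.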
